A study of Mus musculus with 6 samples.

Results

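The genes described are the mouse glycine receptor subunits Glra1, Glra2, Glra3, Glra4 and Glrb, the receptor scaffold gephyrin (Gphn) and the plasma membrane glycine transporters Slc6a9 (GlyT1) and Slc6a5 (GlyT2). They were chosen by name, as a gene family with its scaffold and its carriers, and these 8 genes were all found among the 32371 genes of the count table. All 8 also passed the filter on low counts that left 18138 genes for testing. The RNA-Seq compared 3 libraries from C57BL/6J mice injected intravitreally with AAV2-GFP with 3 libraries from C57BL/6J mice injected with AAV2-Ezh2-Y726D. Ezh2-Y726D is a form of the histone methyltransferase Ezh2 that has lost its catalytic activity. All mice were adults, all had an optic nerve crush (ONC) 2 weeks after the virus, and retinal cells positive for CD90.2, the product of Thy1, were sorted 3 days after the crush. There was no uninjured group. The sources used here do not give the promoter of the viral vectors, nor whether a library came from 1 mouse or several, so that P values measure the spread between libraries, which may be technical.

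Glycine receptors are chloride channels of 5 subunits that open when glycine binds, and in mature neurons they are mostly inhibitory. The α subunits form the glycine binding site and can make channels on their own, whereas the β subunit, encoded by Glrb, joins them and ties the channel to gephyrin under the synaptic membrane. In the retina, glycine is released mainly by narrow-field amacrine cells, of which the AII cell is the best known, onto bipolar, amacrine and ganglion cells. GlyT1 takes glycine up again and marks glycinergic amacrine cells in the retina, and GlyT2 is known chiefly from the terminals of glycinergic neurons in the spinal cord and brainstem.

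Total counts were between 9333244 and 23782520 per library. The single rRNA gene CT010467.1 accounted for 50.9% of all counts in GFP replicate 2, 52.2% in GFP replicate 3 and 2.55% to 16.1% elsewhere, which left 4460732 counts on other genes in GFP replicate 3 and 22024582 in Ezh2-Y726D replicate 3. Levels are given as CPM, that is, counts relative to the TMM-scaled size of the library. TMM is edgeR's scaling factor, which keeps a few abundant genes from setting the level of all others. Ezh2 itself (chromosome 6, 47530139 to 47595341) was at 22.7, 23.8 and 26.3 CPM with GFP and 65.1, 65.5 and 65.1 CPM with Ezh2-Y726D, where transcripts of the vector and of the endogenous gene are counted together. The ganglion cell markers of the sort were present, with Thy1 at 35.2 ± 1.84 CPM per exonic kilobase in GFP (SD, n = 3 libraries). Markers of other retinal cells were present as well, among them the Müller glia gene Glul at 893 ± 14.4 CPM per exonic kilobase in GFP (SD, n = 3 libraries). The libraries therefore hold RNA of a mixture of retinal cells. In such samples more cells of a type and more RNA per cell cannot be told apart.

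The upstream sequence of Glra3 and Glra2, which encode α subunits that rose, is shown beside that of Glrb, which encodes the β subunit and rose by less. Each run holds the 250 bases before the RefSeq transcription start on GRCm38.p6, 5′ to 3′ on the strand of the gene, with every CG dinucleotide in capitals. Glra3 lies at chr8:55940168-55940417 on the plus strand, Glra2 at chrX:165327394-165327643 on the minus strand and Glrb at chr3:80913661-80913910 on the minus strand.
Glra3: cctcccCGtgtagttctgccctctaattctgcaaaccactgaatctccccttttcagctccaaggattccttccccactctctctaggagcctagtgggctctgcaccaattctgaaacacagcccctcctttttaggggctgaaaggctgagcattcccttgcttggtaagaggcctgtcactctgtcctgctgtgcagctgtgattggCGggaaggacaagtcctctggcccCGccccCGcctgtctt
Glra2: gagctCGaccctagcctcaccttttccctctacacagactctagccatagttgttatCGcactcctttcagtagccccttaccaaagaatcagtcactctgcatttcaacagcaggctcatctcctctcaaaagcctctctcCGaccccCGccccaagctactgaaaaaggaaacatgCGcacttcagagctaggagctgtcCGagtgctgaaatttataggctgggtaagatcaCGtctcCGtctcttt
Glrb: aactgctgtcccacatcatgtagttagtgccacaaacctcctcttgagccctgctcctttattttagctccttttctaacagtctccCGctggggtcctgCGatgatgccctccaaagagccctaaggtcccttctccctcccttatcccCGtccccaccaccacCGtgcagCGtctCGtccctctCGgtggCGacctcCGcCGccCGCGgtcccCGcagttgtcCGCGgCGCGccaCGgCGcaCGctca
These 250 bases hold 4 CG dinucleotides in Glra3, 8 in Glra2 and 20 in Glrb.

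Among the α subunits, Glra2, Glra3 and Glra4 rose after Ezh2-Y726D overexpression and Glra1 did not pass the test. Glra3 (ENSMUSG00000038257, chromosome 8, 55940460 to 56130070), which in the mouse is strongly expressed in the retina and in the dorsal horn of the spinal cord, was at 47.7, 56.9 and 44.2 CPM in GFP replicates 1, 2 and 3. In the Ezh2-Y726D replicates it was at 91.7, 102 and 99.5 CPM. The lowest Ezh2-Y726D library was thus well above the highest GFP library. Its log2 fold change was 0.99 (SE 0.061, adjusted P = 6.47e-13 in the quasi-likelihood test of edgeR, adjusted after Benjamini and Hochberg over all genes tested), a 1.98-fold difference and the largest of the 8 genes.

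Glra2 (ENSMUSG00000018589, chromosome X, 165129017 to 165327393) encodes the α subunit that prevails in the developing nervous system and persists in the adult retina. It was at 25.0, 24.5 and 22.7 CPM with GFP and 38.5, 38.4 and 36.7 CPM with Ezh2-Y726D. The spread within each group was small beside the gap between them, with a log2 fold change of 0.63 (SE 0.063, edgeR adjusted P = 5.72e-09).

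Glra4 (ENSMUSG00000018595, chromosome X, 136757674 to 136780141), whose human counterpart is regarded as a pseudogene, was the least abundant α subunit. It had 163, 39 and 20 counts in the GFP libraries and 238, 202 and 265 counts in the Ezh2-Y726D libraries, which correspond to 5.71, 5.02 and 3.31 CPM and to 8.93, 9.89 and 8.97 CPM. The groups did not overlap, but the GFP libraries differed from each other more than those of Ezh2-Y726D did. The log2 fold change was 0.84 (SE 0.13, edgeR adjusted P = 1.05e-05), and it ran from 0.74 to 1.11 when 1 library was left out.

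Glra1 (ENSMUSG00000000263, chromosome 11, 55514238 to 55608198) encodes the α subunit of most adult synaptic glycine receptors in the spinal cord and brainstem, and its mutations cause startle disorders. It was at 11.3, 11.1 and 14.7 CPM with GFP and 14.3, 12.7 and 11.2 CPM with Ezh2-Y726D. The ranges of both groups covered each other almost fully. Its log2 fold change was 0.10 with a 95% interval from -0.12 to 0.32 (edgeR adjusted P = 0.581), so that the rise of Glra2, whose interval ran from 0.50 to 0.76, lay outside it. Glra1 is the only α subunit gene whose exons overlap another gene, over 5.84% of its exonic bases and on the opposite strand.

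**Figure D1:**
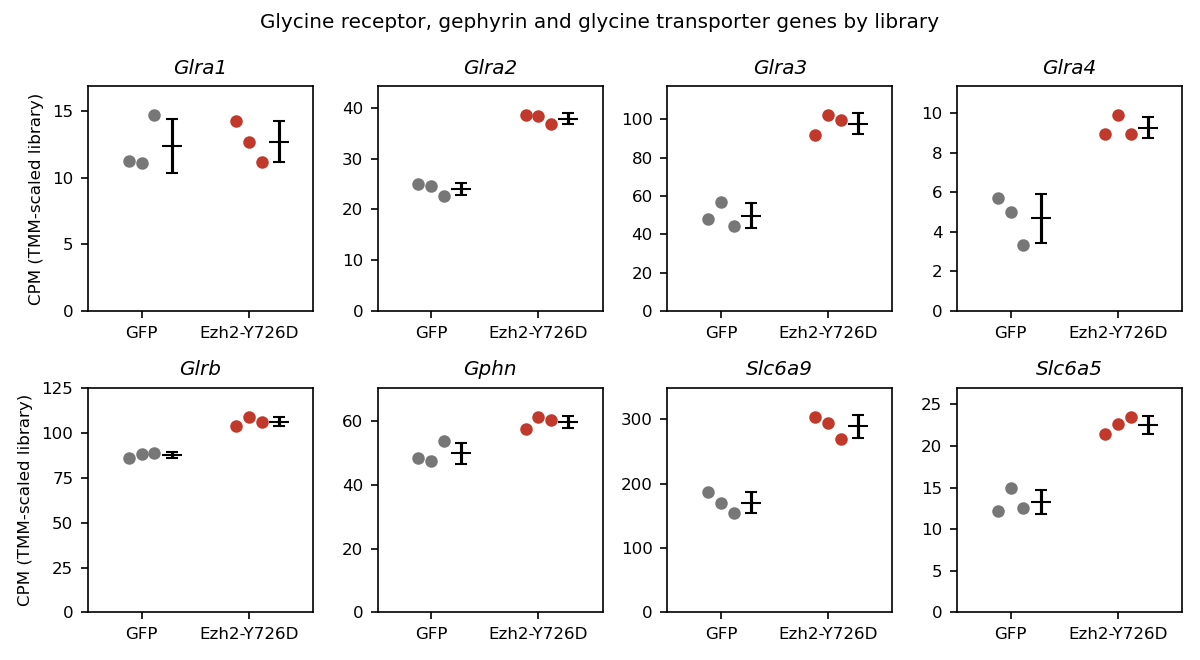
CPM after TMM scaling (vertical axes, each starting at 0) for the 8 genes in the 3 GFP libraries (grey) and the 3 Ezh2-Y726D libraries (red), in the order of their replicate numbers. Black bars give the mean and SD of a group. In every gene other than Glra1, all red points lie above all grey points, as for Glra3 with 91.7 to 102 CPM against 44.2 to 56.9 CPM.

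The genes that anchor the receptor rose as well, but by less. Glrb (ENSMUSG00000028020, chromosome 3, 80843599 to 80913660) was at 86.0, 88.1 and 89.1 CPM with GFP and 104, 109 and 106 CPM with Ezh2-Y726D. Replicates lay within a few CPM of each other, and the log2 fold change was 0.28 (SE 0.043, edgeR adjusted P = 8.24e-06). Gphn (ENSMUSG00000047454, chromosome 12, 78226379 to 78684772) encodes gephyrin, which holds glycine and many GABA-A receptors at synapses and also has an enzymatic role in making the molybdenum cofactor. It was at 48.6, 47.4 and 53.7 CPM with GFP and 57.6, 61.4 and 60.4 CPM with Ezh2-Y726D, with a log2 fold change of 0.27 (SE 0.055, edgeR adjusted P = 2.79e-04). Exons on the opposite strand cover 3.92% of its exonic bases. Neither gene reached the 1.5-fold change that the study required of a differentially expressed gene (DEG), and their intervals of 0.19 to 0.37 and 0.16 to 0.39 on the log2 scale lay below those of Glra2, Glra3 and Glra4.

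Both glycine transporters rose. Slc6a9 (ENSMUSG00000028542, chromosome 4, 117834506 to 117875198) was at 187, 170 and 154 CPM with GFP and 304, 294 and 269 CPM with Ezh2-Y726D. No GFP library came near the lowest Ezh2-Y726D library, and the log2 fold change was 0.74 (SE 0.053, edgeR adjusted P = 1.00e-11), a 1.68-fold difference. Exons of genes on the opposite strand, mostly Ccdc24, cover 30.2% of the exonic bases of Slc6a9. Whether the counting used the strand is not given in the sources used here, and the count of Slc6a9 is uncertain to that extent.

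Slc6a5 (ENSMUSG00000039728, chromosome 7, 49910146 to 49963856) overlaps no other gene. It was at 12.2, 14.9 and 12.6 CPM with GFP and 21.4, 22.6 and 23.5 CPM with Ezh2-Y726D, again without overlap. Its log2 fold change was 0.81 (SE 0.084, edgeR adjusted P = 1.20e-08). The ratio of Slc6a5 to Slc6a9, in counts per exonic kilobase, was 0.0464, 0.0628 and 0.0584 in the GFP libraries and 0.0502, 0.0548 and 0.0623 in the Ezh2-Y726D libraries. The ratio overlapped between the groups (difference -7.34e-05, P = 1.0, 2-sided exact permutation test, n = 3 libraries each).

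Of the 8 genes, 7 rose at an adjusted P under 0.05 and none fell, since all 8 estimates were above 0 in edgeR and in DESeq2. Of all genes tested 27.5% passed this threshold, of which those that rose were 13.9% and those that fell 13.6% of the genes tested. By the stricter rule of a DEG, which also asks for a fold change over 1.5, 5 of the 8 genes were higher, namely Glra2, Glra3, Glra4, Slc6a9 and Slc6a5, against 2.52% of all genes tested, and none was lower, against 5.5%. In 7 of the 8 genes, all Ezh2-Y726D libraries lay above all GFP libraries, as in 19.7% of all genes tested, and in none were they all below, as in 18.9%. The median log2 fold change of the 8 genes was 0.69, and that of all genes tested was 0. The 7 genes also passed with each library left out in turn, and without GFP replicates 2 and 3, the libraries rich in CT010467.1, when GFP is left with 1 library that is assumed to vary like those of Ezh2-Y726D. The scaling mattered more. When libraries were scaled by their totals instead, the median of all genes moved to 0.49 and only Glra3 passed, with a log2 fold change of 1.49, or about 1.0 above that median.

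**Figure D2:**
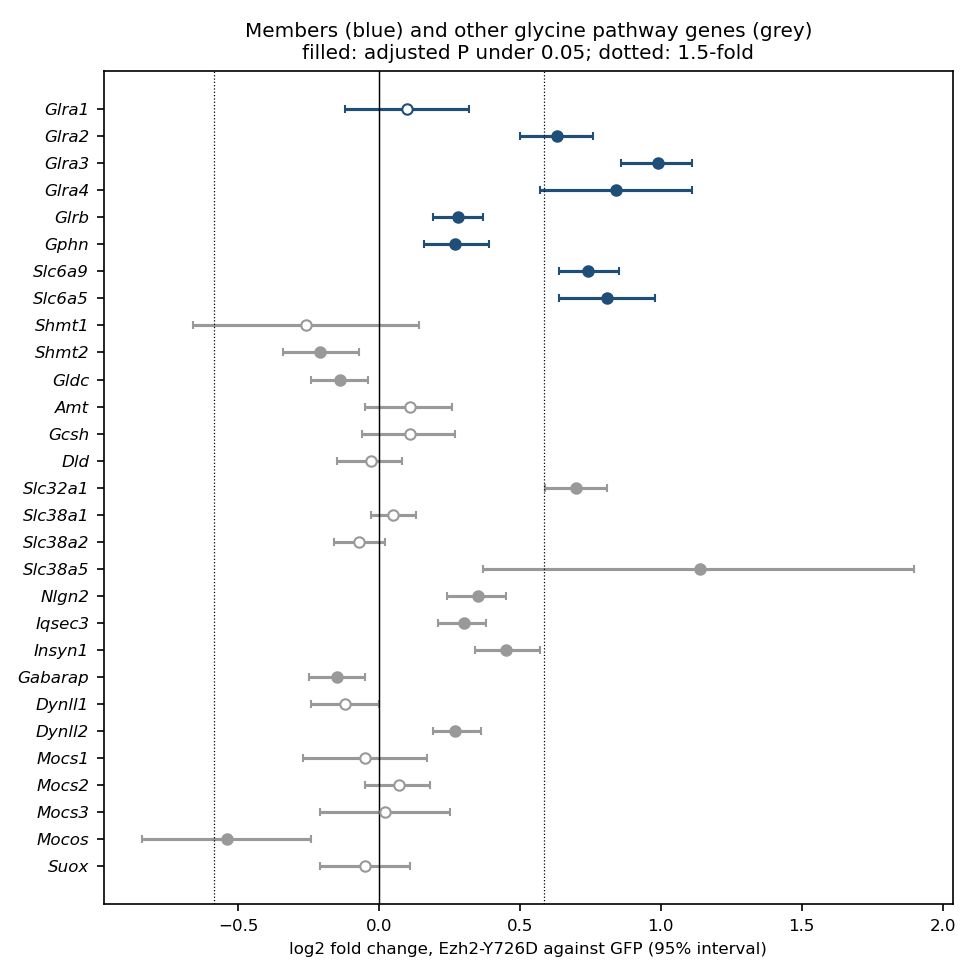
Log2 fold changes between Ezh2-Y726D and GFP with 95% intervals (horizontal axis) for the 8 genes (blue) and for other tested genes of glycine handling and of inhibitory synapses (grey). Filled points have an adjusted P under 0.05 and dotted lines mark 1.5-fold. Glra2, Glra3, Glra4, Slc6a9 and Slc6a5 lie to the right of the upper dotted line, and Glra1 at 0.10 is the only open blue point.

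Because genes differ in length, levels of different genes were compared as CPM per kilobase of exonic sequence. In GFP, Slc6a9 was highest with 33.1 ± 3.24, followed by Glrb with 18.8 ± 0.346, Gphn with 13.3 ± 0.888 and Glra2 with 7.63 ± 0.381 CPM per exonic kilobase (SD, n = 3 libraries each). Below these, Glra3 with 5.39 ± 0.712 and Glra1 with 5.13 ± 0.85 overlapped each other, as did Glra4 with 2.33 ± 0.614 and Slc6a5 with 1.84 ± 0.208 CPM per exonic kilobase. After Ezh2-Y726D the order was the same, but Glra3 at 10.6 ± 0.596 no longer overlapped Glra1 at 5.28 ± 0.635 CPM per exonic kilobase. Glra4, at 4.61 ± 0.269 CPM per exonic kilobase, now overlapped Glra1.

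The make-up of the α subunit transcripts was followed as the share of each gene in their summed counts per exonic kilobase, which does not depend on the scaling between libraries. Glra3 made up 25.1%, 29.4% and 24.3% in the GFP libraries and 30.6%, 33.2% and 34.2% in the Ezh2-Y726D libraries. Glra1 made up 22.7%, 21.8% and 30.9% in GFP and 18.2%, 15.7% and 14.7% in Ezh2-Y726D. The groups did not overlap in either share, and in both the P value of 0.1 (2-sided exact permutation test, n = 3 libraries each) is the smallest that 3 libraries against 3 allow. Glra2 had the largest share in every library, with a mean of 37.3 ± 1.02% in GFP and 36.9 ± 0.565% in Ezh2-Y726D (SD, n = 3 libraries each), which was within the spread of the libraries. That order rests on the division by exonic length, since in plain counts Glra3 had the largest share, 54.5 ± 3.38% in GFP and 62.0 ± 1.99% in Ezh2-Y726D (SD, n = 3 libraries each), and Glra2 had 25.1% to 27.8% in GFP and 23.5% to 25.1% in Ezh2-Y726D. Glra4 made up 8.34% to 13.8% in GFP and 13.7% to 14.7% in Ezh2-Y726D, with overlap.

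The summed α subunits were higher relative to the β subunit in every Ezh2-Y726D library than in any GFP library. Their ratio to Glrb was 1.12, 1.11 and 1.03 in the GFP libraries and 1.46, 1.44 and 1.38 in the Ezh2-Y726D libraries, in counts per exonic kilobase. The difference of the means was 0.338 (P = 0.1, 2-sided exact permutation test, n = 3 libraries each, again the smallest possible value). In contrast, the ratio of Gphn to Glrb was 0.706 ± 0.04 in GFP and 0.699 ± 0.0101 in Ezh2-Y726D (SD, n = 3 libraries each), with overlap between the groups.

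**Figure D3:**
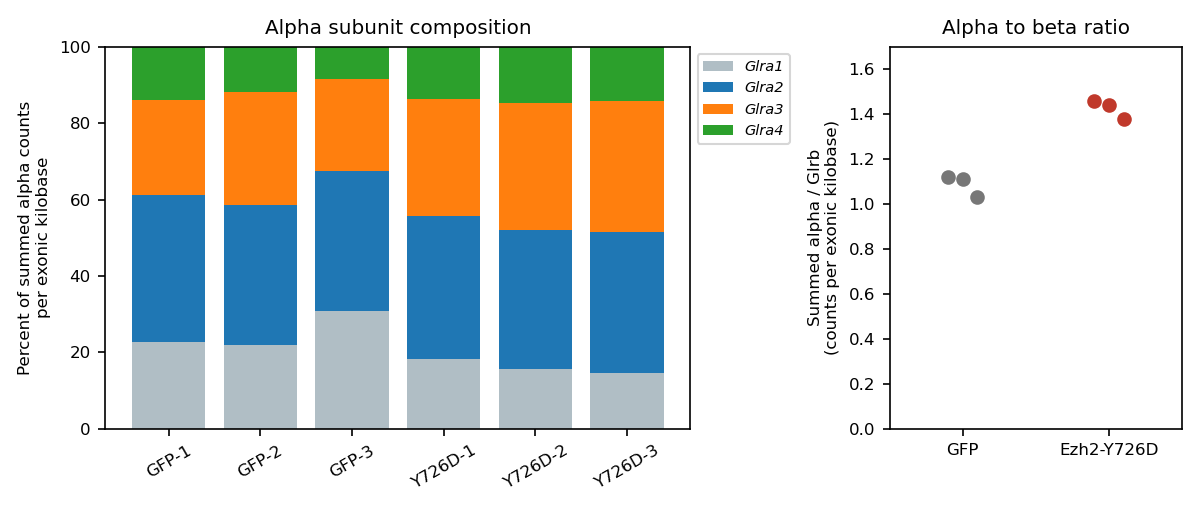
Left, the percentage of each α subunit gene in the summed α subunit counts per exonic kilobase for each library (Y726D stands for Ezh2-Y726D). Right, the ratio of the summed α subunits to Glrb in the same unit, 1 point a library. The Glra3 segment is 24.3% to 29.4% in GFP and 30.6% to 34.2% in Ezh2-Y726D, and the ratio is 1.03 to 1.12 against 1.38 to 1.46.

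Glycine released at synapses is loaded into vesicles by the carrier that also loads GABA, and is made and broken down by mitochondrial and cytosolic enzymes. Genes of these steps, and proteins that work with gephyrin, were followed as lists of 26 genes in all, of which 22 were tested. Of these, 7 rose and 4 fell at an adjusted P under 0.05, with a median log2 fold change of 0.04. Of all genes tested, 13.9% rose and 13.6% fell at this threshold.

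Among the carriers, the vesicular carrier Slc32a1 rose. It was at 56.6 ± 2.22 CPM in GFP and 93.0 ± 5.69 CPM in Ezh2-Y726D (SD, n = 3 per group), which is a log2 difference of 0.70 (SE 0.053, edgeR adjusted P = 3.46e-11). A gene on the opposite strand covers 24.9% of its exonic bases, which makes its count uncertain. Slc38a5, a neutral amino acid carrier of glia that accepts glycine, had a log2 fold change of 1.14 (edgeR adjusted P = 0.022) at a level of only 0.371 ± 0.138 CPM in GFP and 0.981 ± 0.199 CPM in Ezh2-Y726D (SD, n = 3 libraries each). Slc38a1 and Slc38a2 did not pass, with log2 fold changes of 0.05 and -0.07, and Slc7a10 and Slc6a20a were too low to be tested.

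Of the 7 tested genes for gephyrin partners and inhibitory synapse proteins, 5 rose and 1 fell, where 13.9% of all genes tested rose and 13.6% fell. Insyn1, an inhibitory synaptic factor that binds gephyrin, rose most, from 43.8 ± 3.47 to 60.5 ± 1.26 CPM (SD, n = 3 per group), which is a log2 difference of 0.45 (edgeR adjusted P = 2.54e-07). Nlgn2, the neuroligin of inhibitory synapses, and Iqsec3 rose by 0.35 and 0.30 on the log2 scale. Gabarap, a trafficking protein that binds GABA-A receptors, fell by 0.15 on the log2 scale (edgeR adjusted P = 0.0188). All of these differences stayed under 1.5-fold.

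Of the 6 tested enzymes of glycine synthesis and cleavage, 2 fell, 4 did not pass and none was called higher. Of all genes tested, 13.6% were called lower and 13.9% higher. Shmt2, the mitochondrial enzyme that makes glycine from serine, had a log2 fold change of -0.21 (edgeR adjusted P = 0.0189) although its groups overlapped, and Gldc, the decarboxylase of the glycine cleavage system, one of -0.14 (edgeR adjusted P = 0.035). Shmt1 and Amt marked the ends of the list with log2 fold changes of -0.26 and 0.11, neither past the threshold. In the molybdenum cofactor list 4 of 5 genes did not pass, and Mocos, the cofactor sulfurase, fell to 3.57 ± 0.218 CPM against 5.23 ± 0.375 CPM in the controls (SD, n = 3 per group), which is a log2 difference of -0.54 (edgeR adjusted P = 0.00562). The 4 falls over all lists were less firm than the rises, since none passed without GFP replicate 1 or in DESeq2, and 1 passed without Ezh2-Y726D replicate 3.

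Markers of amacrine cells were higher in the same libraries. Over a list of 9 amacrine genes, the summed level was 809 to 869 CPM in GFP and 1210 to 1250 CPM in Ezh2-Y726D. Of the 7 tested genes 6 rose and none fell, where 13.9% of all genes tested rose and 13.6% fell. Gad1, which makes GABA, rose from 300 ± 18.6 to 486 ± 7.97 CPM, and Pax6 from 355 ± 10.9 to 477 ± 9.23 CPM (SD, n = 3 libraries each). Chat and Slc18a3, the markers of starburst amacrine cells, were too low to be tested, each with 0 counts in GFP replicate 3. The list of AII and VG3 amacrine genes was mixed. Ebf3, Dab1 and Slc17a8 rose by 0.52, 0.42 and 0.42 on the log2 scale, Prox1 fell by 0.15, and Gjd2 did not pass at -0.09. The summed level of the list was 346 to 360 CPM in GFP and 360 to 372 CPM in Ezh2-Y726D.

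The summed level of 4 rod markers was also higher, at 4700 to 4810 CPM in GFP and 5270 to 5410 CPM in Ezh2-Y726D, and 2 of them rose and none fell. The 11 ganglion cell markers summed to 445 to 458 CPM in GFP and 435 to 473 CPM in Ezh2-Y726D. Of these, 2 rose and 9 did not pass. Those that rose were Pou4f1, by 0.41 on the log2 scale, and Thy1, the gene of the sorted antigen, by 0.13. The 7 bipolar cell markers summed to 980 to 996 CPM in GFP and 801 to 825 CPM in Ezh2-Y726D, with 6 falling and Prkca rising. The 4 cone and the 4 T cell markers all fell, 3 of 5 microglia markers fell and 1 rose, and of 5 Müller glia markers 1 rose and 1 fell. Of all genes tested, 13.9% rose and 13.6% fell at the same threshold of adjusted P under 0.05. The part of the marker shifts in the levels of the glycine genes was not tested.

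The 8 genes were also set against the summed level of the 9 amacrine markers in each library, of which Gad1 and Pax6 made up 77.5% to 78.5%. The ratio of Glra3 to the amacrine sum was 0.0547 to 0.0655 in GFP and 0.0755 to 0.0818 in Ezh2-Y726D, so that it was 1.35 times as high on average. The same ratio of means was 1.35 for Glra4, 1.07 for Glra2 and 1.16 for Slc6a5, each without overlap between the groups, and 1.16 with overlap for Slc6a9. It was 0.825 for Glrb, 0.816 for Gphn and 0.699 for Glra1, whose Ezh2-Y726D libraries all lay below the GFP libraries. The direction depended on the markers chosen. Against the summed AII and VG3 markers, a comparison added after seeing the data, the ratio of means was 1.17 for Glrb and 1.16 for Gphn, both now higher without overlap, and 0.996 for Glra1 with overlap. It was 1.52 to 1.9 for Glra2, Glra3, Glra4, Slc6a9 and Slc6a5, each higher without overlap. Most of the AII and VG3 sum came from Prox1 and Gjd2, with means of 188 and 66.6 of 351 CPM in GFP. Neither of them rose. The rest came from Dab1, Ebf3 and Slc17a8, which each rose by more on the log2 scale than Glrb and Gphn. These ratios are given as a description, without a test.

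**Figure D4:**
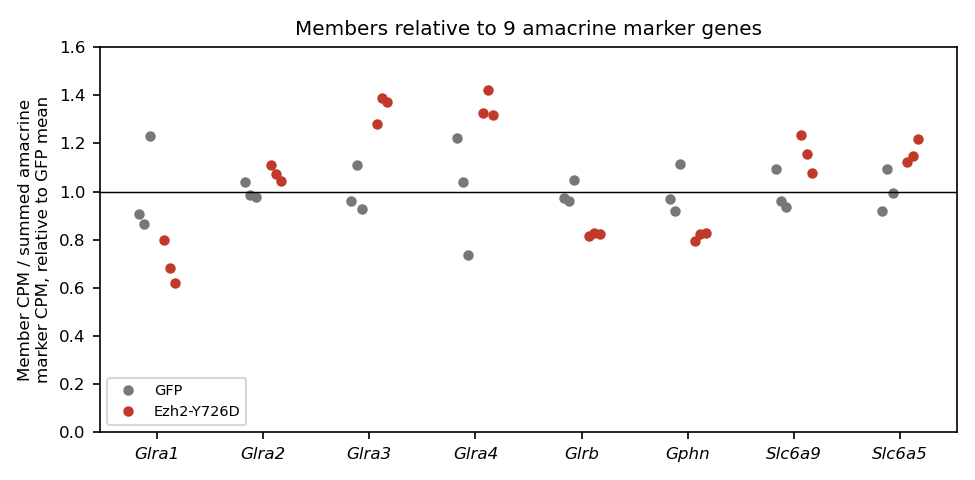
CPM of each gene divided by the summed CPM of 9 amacrine marker genes in the same library, shown relative to the mean of the GFP libraries (vertical axis, black line at 1), for GFP (grey) and Ezh2-Y726D (red). Glra3 and Glra4 average 1.35 in Ezh2-Y726D, whereas Glrb, Gphn and Glra1 average 0.825, 0.816 and 0.699. Against AII and VG3 markers, not drawn, Glrb and Gphn were higher instead, at 1.17 and 1.16. Most of that sum came from Prox1 and Gjd2, which did not rise.

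The genes whose profile over the 6 libraries was nearest to that of Glra3 and Slc6a9, which had the smallest adjusted P of the 8 genes, were found by the root mean square distance of centred log2 CPM among 10487 genes with a mean of at least 10 CPM. For Glra3 they were Grik2, which encodes a kainate receptor subunit, Hpgd, a prostaglandin-degrading enzyme, and Grin2b, which encodes an NMDA receptor subunit, at distances of 0.0489, 0.075 and 0.0819. For Slc6a9 they were Camkv, Vstm2l and Nell1, at distances of 0.0386, 0.0402 and 0.0406. With 6 libraries in 2 groups such a distance mainly reflects the fold change, which was 0.89 to 1.06 on the log2 scale for the first set and 0.68 to 0.75 for the second.

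Promoter windows of 300 bases, from 250 before to 50 after a RefSeq start, were available for 7 of the 8 genes, and Glra1 was not among them. The median over 32851 such windows was 7 CG dinucleotides and a CpG observed to expected ratio of 0.384. Glrb and Gphn held 30 and 42 CG dinucleotides with ratios of 0.962 and 1.04, above 91.8% and 95.8% of all windows. Glra4 held 3, Glra3 8 and Glra2 9 CG dinucleotides, with ratios of 0.152, 0.347 and 0.529. The 3 windows of Slc6a9 held 8 to 14 and the 2 windows of Slc6a5 held 7 and 12.

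Short motifs were looked for on both strands of these windows. The GC box GGGCGG, which 35.7% of all windows hold, was found in Glra2, Glra3, Glrb, Gphn and the most upstream window of Slc6a9. The TATA box TATAAA (13.6% of all windows) was found in Glra2, the E-box CAGCTG (16.3%) in Glra3 and the AP-1 motif TGACTCA (5.2%) in the upstream window of Slc6a5. The homeodomain core TAATTA (5.29%) and CAGCACC, a stretch of the motif of the repressor REST (7.14%), were found in none of these windows. A match is a stretch of letters and not a measured binding site.

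**Figure D5:**
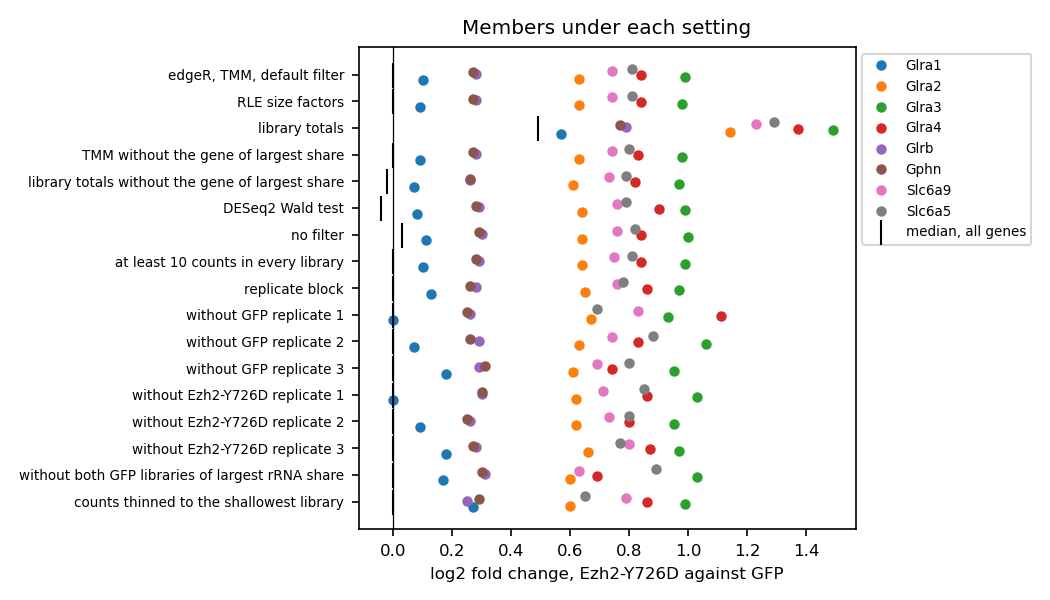
Log2 fold changes of the 8 genes (colours, horizontal axis) under each way of scaling, filtering, testing or leaving out libraries (rows), with the median of all genes as a black tick. Library totals moved the genes and the median together, the median to 0.49. In the other rows Glra1 stayed the lowest or among the lowest 3 and Glra3 or Glra4 the highest.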

How the data were processed

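Raw read counts for each Ensembl gene, which are whole numbers and not normalized, were deposited for 6 libraries prepared by a strand-specific total RNA protocol. The submitters' processing notes name STAR 2.7.0d and GRCm38. The counting tool, the annotation, the use of the strand and any filter are not given in the sources used here. Each column was assigned to its sample by name, and no column was left out. Symbols were found for 32325 of 32371 identifiers. Coordinates, exonic lengths and exonic overlaps are those of GENCODE vM21 on GRCm38, and promoter windows those of RefSeq on GRCm38.p6.

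Counts were filtered with edgeR's filterByExpr (minimum count 10, minimum total 15), scaled by TMM (factors 0.647 to 1.31) and tested with edgeR's quasi-likelihood test (edgeR 4.0.16, R 4.3.3) over all 6 libraries without a block, with Benjamini-Hochberg adjustment over 18138 genes. Standard errors (SE) were derived from each log2 fold change and its F statistic. Shares and ratios were compared by exact permutation tests in scipy 1.17.1. The alternatives included DESeq2 1.42.0. The 8 genes, the other lists and the tests were chosen with earlier results of these data known. The named genes are the 8 members, Ezh2, companion genes past 1.5-fold or at either end of their list, markers, and the 3 nearest profiles of the 2 members with the smallest adjusted P. Others of the lists that are named were chosen after their values were seen. Gcat carries 2 identifiers and Nlgn4l none here, and they were not analysed. Every pair of libraries differed by more than counting noise (chi-square per degree of freedom 1.49 to 3.03 within groups and 7.45 to 14 between groups). The low depth of GFP replicates 2 and 3 limits genes with few counts, such as Glra4. The fit was tested on simulated data. Some genes of the lists are counted in them but are not reported here by name.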

Additional observations from a re-analysis of the deposited data

How the results depend on the processing

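The rise of 7 genes of glycine receptors, gephyrin and transporters, with none falling, was found with RLE size factors, with TMM or library totals without CT010467.1, in DESeq2, with no filter or at least 10 counts in every library, with counts thinned to the shallowest library, and with 1 library left out (7 in each). With library totals 1 rose. The log2 fold changes were then 1.14 for Glra2, 1.37 for Glra4, 0.79 for Glrb, 0.77 for Gphn, 1.23 for Slc6a9 and 1.29 for Slc6a5 and no longer passed, the median of all genes was 0.49, and 46 genes in all rose and 19 fell, against 2525 and 2463 with TMM. With library totals computed without CT010467.1, 7 of the 8 genes rose again, the median was -0.02, and 2210 genes in all rose and 2761 fell, so the loss of calls came with the counts of that gene in the totals. At a fold change over 2, 0 of the 8 passed. With 1 library left out, Glra1 ran from -0.0017 to 0.18, at -0.0017 without GFP replicate 1 and -0.001 without Ezh2-Y726D replicate 1.

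Of the companion genes, 6 to 7 rose and 0 to 3 fell with 1 library left out. With library totals 0 rose and 0 fell, in DESeq2 0 fell and with thinned counts 1 fell. In counts in place of counts per exonic kilobase, the difference in the Glra2 share was -2.53 percentage points, in the Glra1 share -5.68 percentage points and in the ratio of α to β subunits 0.449, and Glra3 in place of Glra2 had the largest share. Relative to AII and VG3 markers in place of the 9 amacrine markers, chosen after seeing the data, Glrb and Gphn turned from lower to higher, at 1.17 and 1.16 times GFP. Prox1 and Gjd2, which did not rise, made up most of the AII and VG3 sum.

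With the replicate number as a block, 7 of the 8 genes and 7 companion genes rose and 4 companion genes fell, as without it. Same-numbered libraries had correlations of 0.137, 0.051 and 0.039 between their deviations from the group means, and not every pair was over 0.1, so the numbers were not taken as pairs. Each library nevertheless correlated best with its own number, a hint from the data and not from the design.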
